A study of Mus musculus with 16 samples.

Results

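p16-positive alveolar macrophages from lungs exposed to aerosolized LPS for 10 weeks were compared with p16-positive alveolar macrophages from lungs exposed to PBS. LPS (lipopolysaccharide) is the outer-membrane glycolipid of Gram-negative bacteria, and p16, the product of Cdkn2a, is a CDK4/6 inhibitor used as a marker of senescent cells. The 8 p16-positive libraries of the 16 in the series were used, 4 from LPS lungs and 4 from PBS lungs, and all genes with at least 30 UMIs (unique molecular identifiers, 1 per counted transcript) summed over these 8 libraries were tested. This gave 5741 of the 7946 genes in the deposited table.

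The LPS mice were female C57BL/6 mice that inhaled an aerosol of LPS at 0.5 mg/ml in PBS for 30 min, 3 times per week, for 10 weeks, and the PBS mice inhaled PBS on the same schedule. The study's methods describe young and old mice, and the labels do not give the age of these. Each library came from 5000 pooled macrophages sorted as CD45+ CD11c+ Siglec-F+ and then as high (p16-positive) or low (p16-negative) for intracellular p16 protein. The p16-negative macrophages of the same exposures, 4 LPS and 4 PBS libraries, were used here for the shared estimate of spread and for 1 comparison. The labels call the replicates biological but do not say which animals went into which, and a p-value here is a statement on library spread alone, part of which may be technical.

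Alveolar macrophages live on the airspace surface, where they take up surfactant and inhaled particles. Bacterial LPS is sensed by Toll-like receptor 4 with CD14 and MD-2, and the signal runs through NF-kB and interferon regulators to cytokines, chemokines and acute phase proteins. Macrophages kept in an inflamed or lipid-laden tissue are also known to raise complement, lysosomal and lipid-handling genes.

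Depth was uneven. The LPS p16-positive libraries held 118703 to 1176358 UMIs and the PBS p16-positive libraries 13861 to 433490. PBS replicate 1 was the shallowest, so 1 UMI there equals 72.1 CPM (a gene's UMIs scaled to a library of 1000000 UMIs), and it stood alone on the first principal component at 137.9, against −28.7 to −6.3 for the other 7 libraries. Its share of secretory airway genes was 27.7% of UMIs, mostly the club cell gene Scgb1a1. LPS replicate 2 also carried airway genes, with 10.1% of UMIs from the secretory list and 1.09% from the ciliated list. A value of 3 UMIs, the upper limit that a count of 0 allows, equals 2.55 to 25.3 CPM in the LPS libraries and 6.92 to 216 CPM in the PBS libraries, and this limit covers counting error only. Results are therefore also given without these 2 libraries.

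The genes of the sort were sparsely counted. Cdkn2a had 0, 13.6, 0 and 25.5 CPM in LPS libraries 1 to 4, against 0, 0, 20.7 and 6.92 CPM in PBS libraries 1 to 4. That is 34 UMIs in the LPS group, 30 of them in replicate 4, and 7 in the PBS group, and the p16-negative groups had 9 and 8. Over summed UMIs, p16-positive against p16-negative, this was 19.2 against 11.1 CPM in LPS and 9.46 against 19.1 CPM in PBS. The directions were opposite on few UMIs, and a difference of Cdkn2a between the fractions was not tested. The 3′ counting cannot separate the p16 transcript from the Arf transcript of the same gene. Siglecf had 20 UMIs in the LPS group and 22 in the PBS group, and Ptprc, which encodes CD45, had 29 and 20. Itgax, which encodes CD11c, was better covered, at 134, 54.5, 152 and 390.2 CPM in LPS libraries, against 0, 101, 98.2 and 85.4 CPM in PBS libraries. The macrophage gene Chil3, a secreted chitinase-like protein, was well counted in all libraries, with 837 to 2907 CPM after LPS and 685 to 1876 CPM after PBS. Of 47 alveolar macrophage identity genes, 45 were in the table and 41 were tested.

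Across the 5741 genes, 3 passed at an adjusted p under 0.05 (edgeR's quasi-likelihood test with Benjamini-Hochberg adjustment), which is 0.0523% of those tested: Stac2 rose after LPS (0.0174%), and Prx and Impdh1 fell (0.0348%). At an unadjusted p under 0.05 there were 348 genes (6.06%), 158 with higher (2.75%) and 190 with lower (3.31%) values after LPS, where 287 would be reached by chance alone. Positive log2 fold changes were found for 57.8% and negative ones for 42.2% of the genes. Every LPS library lay above every PBS library for 65 genes (1.13%) and below for 130 genes (2.26%). In the shallow PBS replicate 1 a gene reads either 0 or at least 72.1 CPM, so 1 UMI there can decide whether groups are apart. Impdh1, Inmt, Vegfa and Igfbp4, for example, count as apart with 1 UMI each in that library. Groups were compared by CPM, without the TMM factors that scale the libraries in the fit. The TMM factor of PBS replicate 1 was 1.56, against 0.848 to 1.09 in the other p16-positive libraries. Its values are thus lower on the scale of the fit, where some groups that are apart by CPM overlap. These limits hold for each separation of groups given below. The count of 3 depended on the tool and on the libraries. It was 0 when the 8 p16-positive libraries were fitted alone, 20 with DESeq2 and 49 with limma voom and sample quality weights. Leaving out libraries, it was 85, 15 higher and 70 lower, without LPS p16-positive replicate 2, and 69 without that library and PBS p16-positive replicate 1 together. It was 1 without LPS p16-positive replicate 3 or 4, and 0 without LPS p16-positive replicate 1 or without PBS p16-positive replicate 2, 3 or 4. Of the p16-negative libraries, leaving out PBS replicate 1 gave 5 calls and leaving out PBS replicate 4 gave 1. Of the 85 genes, 67 were also among the 69, and the 3 genes called with all libraries were in both sets. The fit without LPS p16-positive replicate 2 gave the most calls of the single leave-outs. Genes named below were picked by low p in these same libraries, so their passing in that fit is not separate support.

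Stac2 encodes an SH3 and cysteine-rich domain protein known from its binding to voltage-gated calcium channels, and it lies on chromosome 11 at 98036623 to 98053462 (GRCm38.p6). It had 677, 214, 472 and 345 CPM in LPS libraries 1 to 4, against 0, 91.0, 62.0 and 41.5 CPM in PBS libraries 1 to 4. The lowest LPS library was above the highest PBS library. This was a log2 fold change of 3.04 ± 0.569 (SE, n = 4 libraries each; edgeR adjusted p = 0.0291).

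Prx encodes periaxin, a scaffold protein first known from myelinating Schwann cells, on chromosome 7 at 27499305 to 27520041. It had 5.60, 10.2, 16.8 and 2.55 CPM in LPS libraries, against 216, 172, 103 and 113 CPM in PBS libraries. All 4 LPS libraries were far below all 4 PBS libraries, with 9 UMIs in the LPS group and 89 in the PBS group. This was a log2 fold change of −4.09 ± 0.716 (SE; edgeR adjusted p = 0.0203).

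Impdh1, on chromosome 6 at 29200436 to 29216364, encodes an inosine monophosphate dehydrogenase, the rate-limiting enzyme type of guanine nucleotide synthesis. It had 28.0, 23.8, 33.7 and 24.7 CPM in LPS libraries, against 72.1, 212, 171 and 224 CPM in PBS libraries. The LPS libraries lay close together and below the PBS libraries, where the value of PBS replicate 1 is 1 UMI. Impdh1 had a log2 fold change of −2.62 ± 0.522 (SE; edgeR adjusted p = 0.0448). Across the 26 alternatives, adjusted p passed in 18 for Stac2, 20 for Prx and 14 for Impdh1, and the direction was the same in each.

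Next to Stac2, 9 genes with higher values after LPS were taken by lowest p to fill a list of 10, and none of these 9 passed with all libraries. Saa3, an acute phase apolipoprotein induced by LPS, had 162, 1545, 480.2 and 2537 CPM in LPS libraries, against 72.1, 80.9, 207 and 90.0 CPM in PBS libraries. LPS replicate 1 lay below PBS replicate 3, so the groups overlapped. The log2 fold change was 3.37 ± 0.764 (SE; edgeR adjusted p = 0.0953). Pf4, the chemokine CXCL4, had 179, 272, 320.1 and 1158 CPM in LPS libraries, against 0, 111, 82.7 and 57.7 CPM in PBS libraries. Here the groups did not overlap, and the log2 fold change was 2.79 ± 0.688 (SE; edgeR adjusted p = 0.0999).

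The promoter windows of Saa3 and Pf4 in a RefSeq table are shown because they were the 2 of 6 named higher genes with a RefSeq promoter window (GRCm38.p6) that held a C/EBP-type motif, TTGCNNAA, on either strand. C/EBP factors are known regulators of acute phase genes. Each run covers the 250 bases before the start that the table uses, read 5′ to 3′ on the gene's strand, with the motif in capitals.
Saa3, chr7:46715677-46715926, minus strand: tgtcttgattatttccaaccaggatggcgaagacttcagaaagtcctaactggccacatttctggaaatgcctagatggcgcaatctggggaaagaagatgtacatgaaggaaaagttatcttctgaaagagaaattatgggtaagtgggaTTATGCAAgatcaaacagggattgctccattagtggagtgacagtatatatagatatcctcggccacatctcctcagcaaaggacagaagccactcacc
Pf4, chr5:90772185-90772434, plus strand: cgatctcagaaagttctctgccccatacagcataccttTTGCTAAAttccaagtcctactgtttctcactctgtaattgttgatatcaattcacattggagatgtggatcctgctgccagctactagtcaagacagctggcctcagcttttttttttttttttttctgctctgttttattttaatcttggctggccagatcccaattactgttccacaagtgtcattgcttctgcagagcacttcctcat

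The motif was found in 9.56% of all 32851 windows of this length, and in 0 of the 8 named lower genes with a window. The NF-kB consensus was found in 0 of the 6 higher and 1 of the 8 lower genes, against 5.0% of all windows. A GATA motif, NAGATAAN, was found in 1 of the 6 and 0 of the 8, against 9.95%. An ETS motif, ACCGGAAG, was found in 0 of the 6 and 0 of the 8, against 1.72%. Both strands were searched for each motif. Looser patterns had been searched first, and the forms above and the 2 windows shown were chosen after those matches were seen. The looser NF-kB pattern, GGG and CC with any 5 bases between them, was found in 1 of the 6 and 5 of the 8, against 45.8% of all windows. The shorter ETS pattern CCGGAAG was found in 0 of the 6 and 0 of the 8, against 6.91%, and the shorter GATA pattern AGATAA in 1 of the 6 and 0 of the 8, against 9.99%. The Pf4 window ends just before the first base of the annotated gene, at 90772435. The Saa3 window lies inside the gene's annotated span, 46711998 to 46719615, so the start it precedes is not the outermost one of that span. On this strand the Saa3 site reads as the reverse complement of the motif. These matches are a description of the letters and show no binding.

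Spink2, a serine protease inhibitor, had 39.2, 20.4, 25.3 and 43.4 CPM in LPS libraries and 0 UMIs in all 4 PBS libraries. Taken over the group against a limit of 3 UMIs, or 4.06 CPM, it was at least 9.35-fold higher after LPS, and its edgeR adjusted p was 0.0953. Tns4, a tensin of focal adhesions, had 50.4, 44.3, 33.7 and 45.1 CPM in LPS libraries, against 0, 0, 5.17 and 9.23 CPM in PBS libraries. Neither gene overlapped between the groups, and for both the PBS counts were near the limit of detection. Lgi4, a secreted protein known from Schwann cell development, had 50.4, 17.0, 67.4 and 87.6 CPM in LPS libraries, against 0, 0, 15.5 and 2.31 CPM in PBS libraries. Its annotated span overlaps that of Fxyd3, and the strand setting of the counting is not known here.

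Mmp14, the membrane-bound matrix metalloprotease MT1-MMP, had 358, 208, 404 and 264 CPM in LPS libraries, against 0, 131, 93.0 and 41.5 CPM in PBS libraries. The log2 fold change was 2.12 ± 0.533 (SE; edgeR adjusted p = 0.119). Cfb, complement factor B of the alternative pathway, had 302, 626, 261 and 1057 CPM in LPS libraries, against 72.1, 131, 191 and 136 CPM in PBS libraries. For both genes the lowest LPS library was above the highest PBS library. Cd63, a tetraspanin of lysosomes and exosomes, had 1679, 943, 767 and 2370.0 CPM in LPS libraries, against 72.1, 374, 496 and 424 CPM in PBS libraries. Slamf9, a SLAM family receptor, had 419.7, 106, 126 and 315 CPM in LPS libraries, against 0, 60.6, 98.2 and 102 CPM in PBS libraries. The margin between groups was wide for Cd63 and narrow for Slamf9. Without LPS p16-positive replicate 2, all 10 named higher genes passed, which is not separate support, since they were picked by low p in these same libraries.

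**Figure D1:**
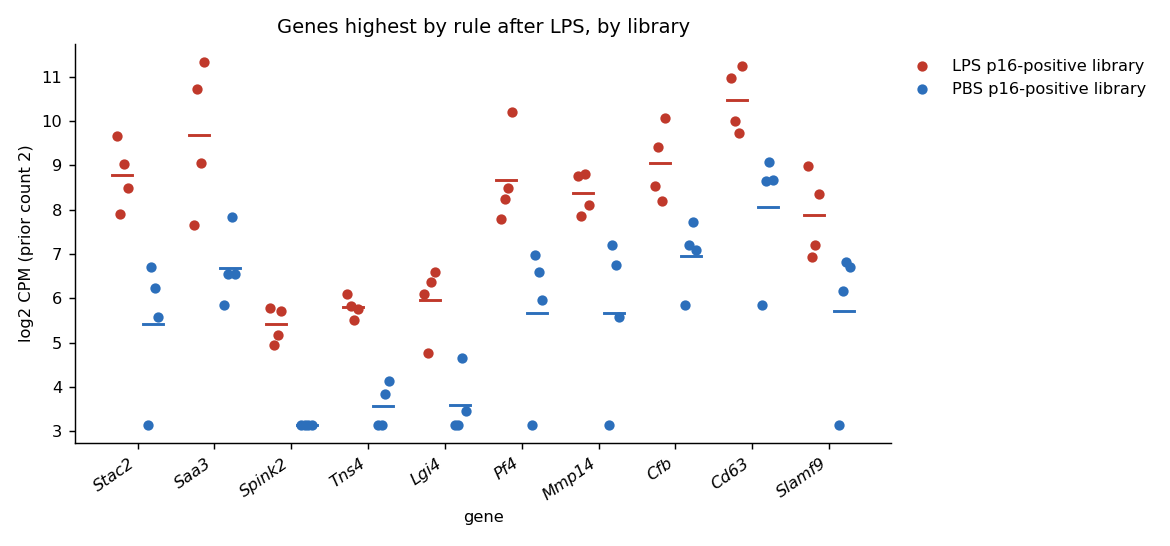
Log2 CPM (prior count 2, scaled by TMM-adjusted library size) of the 10 genes named as higher after LPS, with 1 point per library, LPS p16-positive left of PBS p16-positive, and a bar at the mean of 4 libraries. Saa3 is the 1 gene of the 10 whose CPM overlap between the groups.

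The 10 genes named as lower after LPS were Prx and Impdh1 with 8 genes of lowest p. Of these 8, Egfl7 and Tie1 are on the endothelial list used below. Inmt is on the fibroblast list, Cox4i2 on the smooth muscle and pericyte list, and Gata2 on the eosinophil, mast cell and basophil list. Ace, the angiotensin-converting enzyme abundant on lung capillaries, had 95.1, 167, 185 and 137 CPM in LPS libraries, against 794, 697, 439 and 766 CPM in PBS libraries. The log2 fold change was −1.97 ± 0.411 (SE; edgeR adjusted p = 0.065). Adgrl4, an adhesion receptor of endothelium, had 5.60, 47.7, 25.3 and 6.80 CPM in LPS libraries, against 216, 192, 119 and 155 CPM in PBS libraries. In both genes every LPS library was below every PBS library. Egfl7, a secreted endothelial factor, had 134, 633, 354 and 52.7 CPM in LPS libraries, against 2309, 2537, 1235 and 1474 CPM in PBS libraries. Tie1, an endothelial receptor tyrosine kinase, had 11.2, 57.9, 33.7 and 14.5 CPM in LPS libraries, against 289, 263, 155 and 275 CPM in PBS libraries. LPS replicate 2 held the highest LPS value of Adgrl4, Egfl7 and Tie1.

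Acvrl1, the BMP receptor ALK1 of endothelium, had 89.5, 197, 286 and 95.2 CPM in LPS libraries, against 361, 991, 512 and 757 CPM in PBS libraries. Gata2, a transcription factor of blood progenitors, mast cells and endothelium, had 16.8, 37.4, 25.3 and 8.50 CPM in LPS libraries, against 144, 172, 160.2 and 125 CPM in PBS libraries. By CPM neither overlapped between the groups. Scaled also by the TMM factors, Acvrl1 in PBS replicate 1 lies below LPS replicate 3, so its groups overlap there. Inmt, an indolethylamine N-methyltransferase enriched in lung, had 11.2, 30.6, 25.3 and 3.40 CPM in LPS libraries, against 72.1, 394, 103 and 265 CPM in PBS libraries. Cox4i2, the lung-enriched isoform of cytochrome c oxidase subunit 4, had 5.60, 3.40, 8.42 and 0.850 CPM in LPS libraries, against 0, 111, 31.0 and 57.7 CPM in PBS libraries. Cox4i2 was at 0 in the shallow PBS replicate 1 and so overlapped, and its annotated span overlaps that of Bcl2l1. Adjusted p for the 8 uncalled genes lay between 0.065 and 0.0953 (edgeR). Without LPS p16-positive replicate 2 all 10 named lower genes passed, which is again not separate support. Of the 20 named genes, 9 have an annotated span that overlaps another gene.

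**Figure D2:**
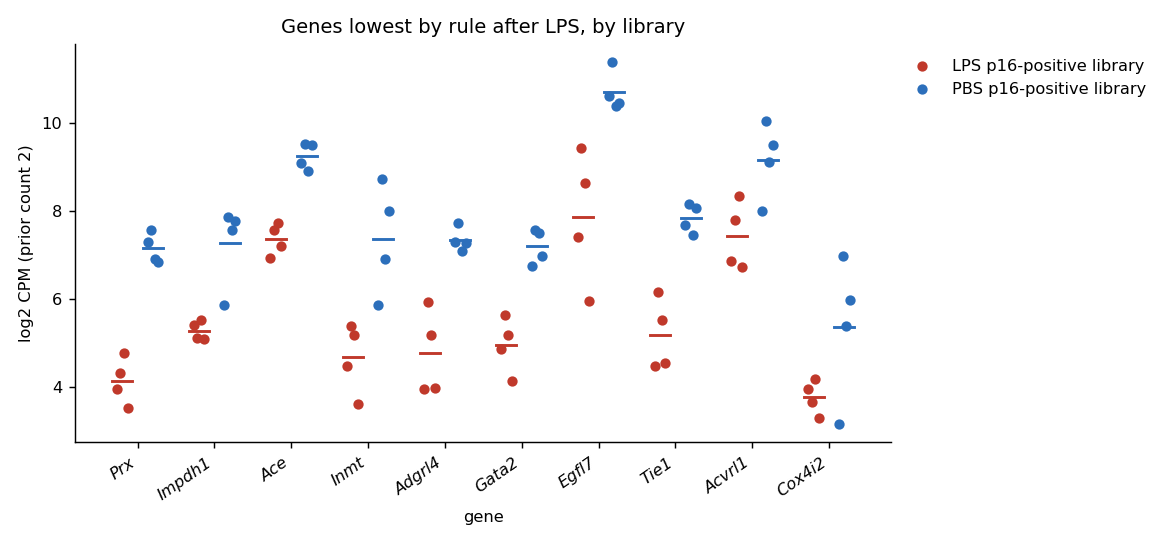
Log2 CPM (prior count 2, scaled by TMM-adjusted library size) of the 10 genes named as lower after LPS, with 1 point per library, LPS p16-positive left of PBS p16-positive, and a bar at the mean of 4 libraries. Prx, Ace, Gata2 and Tie1 show the groups fully apart, while the lowest PBS point of Cox4i2 is the library at 0.

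Endothelial markers mostly had lower values after LPS. Of 16 tested members, 14 had negative and 2 positive log2 fold changes, 13 had lower values at an unadjusted p under 0.05, against 3.31% of all genes, and 7 did not overlap between the groups, with every LPS library below every PBS library, against 2.26% of all genes. The median log2 fold change was −2.18, against 0.11 over all genes tested. None of the 16 passed after adjustment over all genes in the edgeR fit of all libraries, 3 passed with DESeq2 and 5 with limma voom. In edgeR without LPS p16-positive replicate 2, 7 passed, where 85 of all 5741 genes did. The counts over all genes with DESeq2 and limma voom are given above. Leaving out any 1 library kept the median between −2.66 and −1.71. The summed list took 0.335% to 0.543% of UMIs in LPS libraries and 0.954% to 1.56% in PBS libraries, without overlap, and both groups were above 0 for all 19 listed members. In these bulk libraries, fewer cells of a type and less RNA per cell cannot be told apart.

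Plvap, which forms the diaphragms of endothelial openings, had 39.2, 57.9, 25.3 and 13.6 CPM in LPS libraries, against 361, 232, 155 and 239.9 CPM in PBS libraries. Gpihbp1, which anchors lipoprotein lipase on capillaries, had 33.6, 116, 177 and 28.1 CPM in LPS libraries, against 721, 647, 295 and 419.8 CPM in PBS libraries. Cldn5, the tight junction claudin of endothelium, had 403, 1236, 1483 and 89.3 CPM in LPS libraries, against 3391, 6318, 2517 and 2538 CPM in PBS libraries. All 3 genes had separate groups, with log2 fold changes of −2.57 for Plvap and −2.35 for Gpihbp1. The 2 members with positive values were the carbonic anhydrase Car4 at 0.74 and the VEGF receptor Flt1 at 0.24, neither with an unadjusted p under 0.05. Both are also on the alveolar macrophage identity list. Car4 had 3501 UMIs in the LPS group and 1024 in the PBS group, and Flt1 had 953 and 379. The summed shares of the endothelial list include these UMIs and so do not count endothelial RNA alone. Cdh5, which encodes VE-cadherin, had a log2 fold change of −3.49 but only 7 UMIs in the LPS group and 40 in the PBS group.

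Alveolar epithelial markers had lower values after LPS. All 15 tested alveolar type II members had negative values, with a median of −0.93. Of these, 5 had an unadjusted p under 0.05, against 3.31% of all genes, and 4 had every LPS library below every PBS library, against 2.26%. The surfactant protein gene Sftpc had 5736, 8009.6, 6841 and 811 CPM in LPS libraries, against 8369, 43101, 21797 and 26741 CPM in PBS libraries. By CPM all 4 LPS libraries were below all 4 PBS libraries, and LPS replicate 4 was far below the other 3. Scaled also by the TMM factors, PBS replicate 1 lies within the LPS range, so the groups overlap there. Of 9 tested alveolar type I members, 8 had negative values, with a median of −1.57 and 4 at an unadjusted p under 0.05, against the same 3.31%. Ager, the type I receptor RAGE, had 50.4, 221, 84.2 and 17.0 CPM in LPS libraries, against 289, 950.2, 289 and 408 CPM in PBS libraries. Leaving out 1 library moved the type II median between −2.25 and −0.52 and the type I median between −3.23 and −0.27. These lists were taken as markers of epithelium and endothelium, cells that a sort on CD45, CD11c and Siglec-F is meant to leave out, and the source of this RNA was not tested. Endothelial and alveolar values were lower after LPS in the same libraries that the macrophage comparisons below use, and their part in those results was not tested.

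Airway lists followed single libraries. Ciliated markers had 21 positive and 1 negative value among 22 tested, with a median of 1.39, but without LPS p16-positive replicate 2 the count was 3 positive and 19 negative and the median was −0.65. Foxj1, the master regulator of motile cilia, had 453, 3047, 320.1 and 123 CPM in LPS libraries, against 361, 728, 176 and 194 CPM in PBS libraries. The same library held the neutrophil and airway gene Cd177 at 650.2 CPM, against 11.2, 33.7 and 36.6 CPM in the other LPS libraries and 15.5 to 144 CPM in the PBS libraries. The secretory list had 8 positive and 8 negative values of 16, and the median over leave-outs lay between −2.95 and 0.96. No direction is drawn for these genes.

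**Figure D3:**
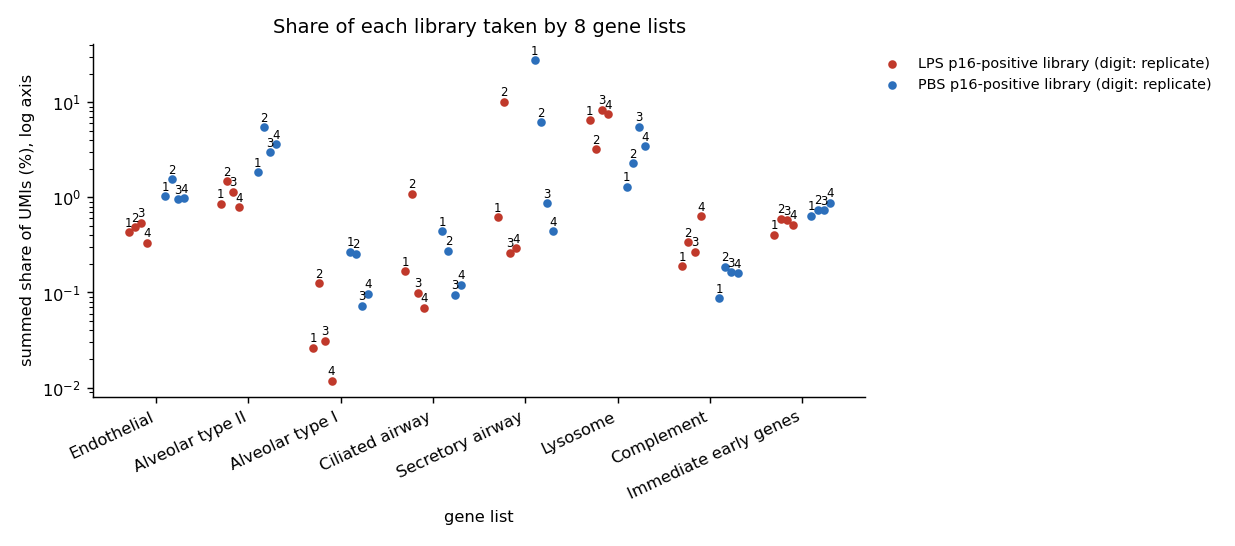
Summed share of UMIs (%, log axis) taken by 8 gene lists in each library, LPS p16-positive left of PBS p16-positive, with the replicate number above each point. The endothelial, alveolar type II and immediate early shares are apart between the groups and lower after LPS. The complement shares are apart by a narrow margin and higher after LPS. LPS replicate 2 and PBS replicates 1 and 2 hold the highest airway shares.

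Complement genes had the highest median of the pathway lists. Of 11 tested, 10 had positive and 1 negative values, 6 had higher values at an unadjusted p under 0.05, against 2.75% of all genes, and the median was 1.39, between 0.39 and 1.74 over leave-outs. The list took 0.189% to 0.630% of UMIs in LPS libraries and 0.0866% to 0.186% in PBS libraries, so all 4 LPS libraries were above all PBS libraries. C1qa, a chain of the C1q recognition molecule, had 470.1, 854, 1264 and 2130.3 CPM in LPS libraries, against 144, 435, 496 and 438 CPM in PBS libraries, with a log2 fold change of 1.66 ± 0.552 (SE; edgeR adjusted p = 0.38). C1qc had 11.2, 95.3, 126 and 389 CPM in LPS libraries, against 0, 30.3, 41.3 and 55.4 CPM in PBS libraries. C1qa and C1qc overlapped between the groups through LPS replicate 1. C3, the central complement protein, had 504, 1018, 396 and 1161 CPM in LPS libraries, against 72.1, 516, 284 and 307 CPM in PBS libraries, also with overlap. None passed after adjustment with all libraries, and Cfb alone passed without LPS p16-positive replicate 2. C1qa, C1qb and C1qc are also on a marker list of recruited monocytes and interstitial macrophages. That list had 5 positive and 4 negative values among 9 tested and a median of 0.94. At an unadjusted p under 0.05, its 3 C1q genes were higher, against 2.75% of all genes, and 1 member was lower, against 3.31%. Which macrophages held this RNA was not tested.

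Lipid-associated macrophage genes, the set around the lipid receptor Trem2, had 15 positive and 4 negative values among 19 tested and a median of 0.93, between 0.30 and 1.29 over leave-outs. Trem2 had 61.6, 126, 185 and 646 CPM in LPS libraries, against 0, 70.8, 77.5 and 69.2 CPM in PBS libraries. Fabp4, a fatty acid carrier of alveolar macrophages, had 705, 139.6, 303 and 751 CPM in LPS libraries, against 72.1, 121, 202 and 265 CPM in PBS libraries. Plin2, a lipid droplet coat protein, had 1186, 313, 573 and 1478 CPM in LPS libraries, against 289, 202, 455 and 514 CPM in PBS libraries. Their log2 fold changes were 2.04, 1.53 and 1.42, and in each 1 LPS library lay within the PBS range. Without LPS p16-positive replicate 2, 3 of the 19 members passed, Trem2, Fabp4 and Cd63, where 85 of all 5741 genes did.

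Alveolar macrophage identity genes split. Of 41 tested, 31 were positive and 10 negative, with a median of 0.57, where 57.8% of all genes were positive. At an unadjusted p under 0.05, 4 were higher, against 2.75% of all genes, and 3 lower, against 3.31%. Ear2, an eosinophil-associated ribonuclease, had 22.4, 13.6, 59.0 and 43.4 CPM in LPS libraries, against 0, 10.1, 10.3 and 4.61 CPM in PBS libraries. By CPM the groups were apart, but on few UMIs, 4 in LPS replicate 2 against 1 and 2 in PBS replicates 2 and 3. In PBS replicate 1 a count of 0 allows up to 216 CPM. Close paralogs of Ear2 could also share reads, so its value is uncertain. Cidec, a lipid droplet protein, had 78.4, 23.8, 135 and 161 CPM in LPS libraries, against 0, 121, 465 and 415 CPM in PBS libraries, a log2 fold change of −1.42. Fabp1, another fatty acid carrier, had 28.0, 3.40, 16.8 and 12.8 CPM in LPS libraries, against 144, 20.2, 46.5 and 46.1 CPM in PBS libraries. Both were lower in most LPS libraries, but the groups overlapped. Pparg, the transcription factor of alveolar macrophage identity, had 16.8, 30.6, 33.7 and 105 CPM in LPS libraries, against 72.1, 10.1, 15.5 and 30.0 CPM in PBS libraries. Marco, a scavenger receptor, had 515, 116, 623 and 416 CPM in LPS libraries, against 361, 475, 863 and 761 CPM in PBS libraries, with no separation. Siglecf had a log2 fold change of −1.46 and Itgax one of 1.22, with edgeR adjusted p of 0.815 and 0.808. The scavenger receptor Cd36 was at 866 CPM in PBS replicate 1 alone, and its log2 fold change was −2.35 with all libraries and 0.52 without that library.

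Lysosomal genes had 38 positive and 6 negative values among 44 tested, with a median of 0.52. The list took 3.20% to 8.32% of UMIs in LPS libraries and 1.29% to 5.53% in PBS libraries, with overlap. Psap, the precursor of the saposins, had 7634, 3302, 4987 and 7222 CPM in LPS libraries, against 433, 1739, 3648 and 2621 CPM in PBS libraries. Ctss, the protease cathepsin S, had 666, 674, 1230.0 and 2997 CPM in LPS libraries, against 505, 495, 801 and 549 CPM in PBS libraries. LPS replicate 2 was within the PBS range for both, and LPS replicate 1 for Ctss. Lgmn, the protease legumain, had a log2 fold change of 1.17. With all libraries, 0 members passed, 6 were higher at an unadjusted p under 0.05, against 2.75% of all genes, and Cd63 passed without LPS p16-positive replicate 2.

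Acute phase and antimicrobial genes had 12 positive and 7 negative values among 19 tested, with a median of 0.76. Orm1, orosomucoid 1, had 11.2, 13.6, 8.42 and 37.4 CPM in LPS libraries and 0 UMIs in all PBS libraries, at least 7.12-fold higher over the group against 4.06 CPM. Wfdc21, a whey acidic protein family member, had 492, 289, 329 and 877 CPM in LPS libraries, against 72.1, 70.8, 269 and 212 CPM in PBS libraries. By CPM both had separate groups, with edgeR adjusted p of 0.137 and 0.397. For Orm1 the separation rests on depth, since its value in LPS replicate 3, 8.42 CPM, is 1 UMI. In PBS replicates 1 and 2, 1 UMI equals 72.1 and 10.1 CPM. S100a9, a calcium-binding protein most abundant in neutrophils, differed in the other direction, with 61.6, 95.3, 25.3 and 95.2 CPM in LPS libraries, against 433, 344, 62.0 and 346 CPM in PBS libraries. The neutrophil list as a whole had 4 positive and 9 negative values among 13 tested, and G0s2 on it had 13 UMIs in the LPS group and 46 in the PBS group.

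Chemokines had 10 positive and 4 negative values among 14 tested, with a median of 0.75, between −0.02 and 0.92 over leave-outs. Ccl9 had 106, 88.5, 101 and 167 CPM in LPS libraries, against 216, 20.2, 62.0 and 41.5 CPM in PBS libraries. Cxcl16, a membrane-bound scavenger chemokine, had 201, 170.2, 92.7 and 546 CPM in LPS libraries, against 433, 80.9, 93.0 and 64.6 CPM in PBS libraries. In both, PBS replicate 1 was high on 3 to 6 UMIs. Ccl22, made by dendritic cells and macrophages, had 17 UMIs in the LPS group and 32 in the PBS group and a log2 fold change of −2.08.

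The LPS sensing and signalling lists had medians of 0.53 and below. Of 12 tested members of the LPS receptor and Toll-like receptor list, 10 were positive, with a median of 0.53. Irak2, a kinase of the Toll-like receptor pathway, had 78.4, 78.3, 109.5 and 124 CPM in LPS libraries, against 0, 40.4, 62.0 and 50.8 CPM in PBS libraries, with separate groups, a log2 fold change of 1.13 and an edgeR adjusted p of 0.638. The NF-kB list had 6 positive and 6 negative values of 12 and a median of −0.04, and 0 members had an unadjusted p under 0.05. Interferon-stimulated genes had 13 positive and 14 negative values of 27 and a median of −0.01. Ifitm3 was the 1 member at an unadjusted p under 0.05, with 16.8, 106, 16.8 and 33.2 CPM in LPS libraries, against 361, 152, 46.5 and 179.9 CPM in PBS libraries. Tnf, the cytokine, had 28.0, 6.81, 42.1 and 29.8 CPM in LPS libraries, against 0, 0, 10.3 and 9.23 CPM in PBS libraries, from 47 and 6 UMIs.

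MHC class I presentation genes had 15 positive and 4 negative values of 19 and a median of 0.44, with 0 at an unadjusted p under 0.05. Cd274, which encodes the checkpoint ligand PD-L1, had 67.2, 27.2, 92.7 and 296 CPM in LPS libraries, against 0, 20.2, 77.5 and 76.1 CPM in PBS libraries. The groups overlapped, and the log2 fold change was 1.23 ± 0.632 (SE; edgeR adjusted p = 0.843). It did not pass in any of the 26 alternatives. Cdkn1a, which encodes p21, had 146, 211, 160.1 and 398 CPM in LPS libraries, against 577, 101, 217 and 224 CPM in PBS libraries, a log2 fold change of 0.21 ± 0.482. Bcl2l1, the survival gene for BCL-XL, had 347, 640.0, 438 and 276 CPM in LPS libraries, against 289, 526, 574 and 325 CPM in PBS libraries, a log2 fold change of 0.10. For both genes the LPS libraries spread across the PBS values. The sign of Cdkn2a (0.50 ± 0.997), of Cdkn1a and of Bcl2l1 turned under some alternatives.

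Immediate early genes, which answer a stimulus and also tissue handling within minutes, had 5 positive and 22 negative values of 27 and a median of −0.48. The list took 0.405% to 0.596% of UMIs in LPS libraries and 0.642% to 0.879% in PBS libraries, without overlap. Klf2, a shear-stress factor of endothelium also used by macrophages, had 146, 283, 362 and 116 CPM in LPS libraries, against 649, 596, 419 and 948 CPM in PBS libraries. Nr4a1 had 151, 225, 463 and 144 CPM in LPS libraries, against 577, 414, 419 and 860.5 CPM in PBS libraries, and Btg2, a p53 target, had 61.6, 88.5, 67.4 and 167 CPM in LPS libraries, against 144, 222, 227 and 265 CPM in PBS libraries. Klf2 had separate groups, and Nr4a1 and Btg2 overlapped through 1 library each.

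Secreted senescence factors were mixed, with 12 positive and 15 negative values of 27 and a median of −0.11. Vegfa, the endothelial growth factor that alveolar type I cells also make, had 0, 3.40, 0 and 3.40 CPM in LPS libraries, against 72.1, 80.9, 15.5 and 34.6 CPM in PBS libraries. Igfbp4, an insulin-like growth factor binding protein, had 5.60, 20.4, 16.8 and 6.80 CPM in LPS libraries, against 72.1, 70.8, 46.5 and 73.8 CPM in PBS libraries. Both rested on few UMIs, 5 and 17 in the LPS group and 27 and 49 in the PBS group. Oxidative phosphorylation genes had 50 positive and 18 negative values of 68 and a median of 0.30, and took 1.58% to 1.85% of UMIs in LPS libraries and 1.30% to 1.49% in PBS libraries.

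The remaining metabolic and housekeeping lists had medians between 0.23 and 0.61. Cholesterol synthesis genes had 11 positive and 2 negative values of 13 and a median of 0.61. Mvd, an enzyme of the mevalonate pathway, had 588, 235, 573 and 489 CPM in LPS libraries, against 72.1, 142, 388 and 238 CPM in PBS libraries, with overlap. Heat shock genes had 17 positive and 6 negative values of 23 and a median of 0.50. Hspe1, the mitochondrial co-chaperonin, had 173, 255, 227 and 291 CPM in LPS libraries, against 144, 80.9, 149.9 and 164 CPM in PBS libraries, with separate groups. Glycolysis genes had 10 positive and 3 negative values of 13 and a median of 0.47. Pfkl, the liver-type phosphofructokinase, had 139.9, 248, 160.1 and 201 CPM in LPS libraries, against 72.1, 131, 124 and 106 CPM in PBS libraries. Hspe1 and Pfkl had log2 fold changes of 0.97 and 0.85. NRF2 target and iron storage genes had 16 positive and 8 negative values of 24 and a median of 0.34, with ferritin heavy chain Fth1 at a log2 fold change of 1.29. Cytosolic ribosomal protein genes had 55 positive and 16 negative values of 71 and a median of 0.23, mitochondrial ribosomal protein genes 36 and 15 of 51 and 0.23, and proteasome genes 17 and 5 of 22 and 0.24.

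Cell division and survival lists lay near 0. DNA replication genes had 7 positive and 8 negative values and a median of −0.14, mitosis genes 6 and 5 and 0.23, cell cycle inhibitors and p53 targets 9 and 9 and −0.05, and BCL2 family genes 6 and 6 and 0.03. Ccnd1, which encodes cyclin D1, had 22.4, 272, 59.0 and 15.3 CPM in LPS libraries, against 289, 546, 145 and 191 CPM in PBS libraries. LPS replicate 2 was the 1 LPS library within the PBS range, and without it Ccnd1 passed. Phlda3, a p53 target, had 582, 422, 826 and 874 CPM in LPS libraries, against 216, 364, 543 and 415 CPM in PBS libraries, with overlap and a log2 fold change of 0.89. MHC class II genes had 3 positive and 8 negative values of 11 and a median of −0.08. Among markers of stromal cells, fibroblast genes had 2 positive and 4 negative values and a median of −1.59, and smooth muscle genes 1 and 4 and a median of −1.66.

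**Figure D4:**
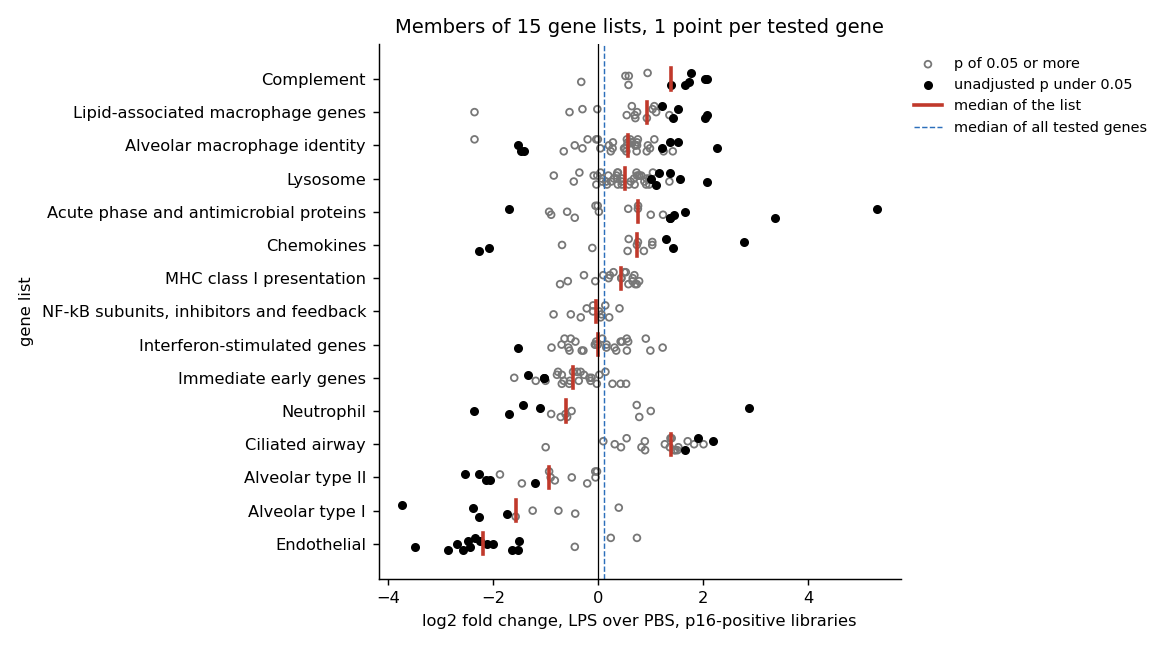
Log2 fold change (LPS over PBS, p16-positive) of the tested members of 15 gene lists, 1 point per gene, filled where the unadjusted p is under 0.05, with a red bar at the median of each list and a dashed line at the median of all genes tested, 0.11. Complement members sit mostly right of 0 and endothelial members mostly left, and 0 of the genes drawn passed after adjustment.

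The LPS effect was then set beside that in p16-negative macrophages. All 10 named higher genes had positive and all 10 named lower genes negative log2 fold changes in the p16-negative libraries. Of all genes, 61.9% had the same sign in both fractions. The share was 81.6% among genes with an unadjusted p under 0.05 in the p16-positive comparison (edgeR), and the 20 named genes were picked by low p there. Stac2 had 634, 772, 619 and 306 CPM in LPS p16-negative libraries, against 0, 148, 162 and 93.6 CPM in PBS p16-negative libraries, a log2 fold change of 2.54. Mmp14 was the 1 gene called in the p16-negative comparison (0.0174%), at 3.24 ± 0.583 (SE; edgeR adjusted p = 0.0315), against 2.12 in p16-positive macrophages. The difference between the fractions passed for 0 of 5741 genes, with edgeR, DESeq2 and limma voom alike, and 70 had an unadjusted p under 0.05 in edgeR. The lowest p were those of Palm, a membrane-bound phosphoprotein, and of the Golgi genes Tgoln1 and Tmem165, with differences of −3.07 ± 0.789, −4.60 ± 1.40 and −5.30 ± 1.68 (SE). Palm had 157, 91.9, 92.7 and 91.0 CPM in LPS p16-positive libraries, against 0, 273, 129 and 194 CPM in PBS p16-positive libraries. In p16-negative libraries it had 129, 193, 72.1 and 129 CPM after LPS, against 0, 16.4, 25.6 and 31.2 CPM after PBS. Tmem165 had 0 UMIs in all 4 PBS p16-negative libraries, and Tgoln1 had 0, 0, 0 and 1. The sizes of these 2 differences therefore rest on a group at the limit of detection. Among the 10 higher and 10 lower genes, Ace (difference −1.56 ± 0.595, unadjusted p = 0.0139) and Prx (−2.72 ± 1.10, unadjusted p = 0.0201) had the lowest p, and neither passed after adjustment in the edgeR fit. The endothelial list had a median of −1.50 in p16-negative macrophages, and its share there was 0.337% to 0.584% of UMIs in LPS libraries and 0.431% to 0.719% in PBS libraries, with overlap. These shares also include Car4 and Flt1, and the part of these genes in the overlap was not tested. The alveolar type II list had a median of 0.22 in p16-negative macrophages, against −0.93 in p16-positive macrophages. For the alveolar type I list the medians were −0.25 and −1.57. A difference of these lists between the fractions was not tested.

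**Figure D5:**
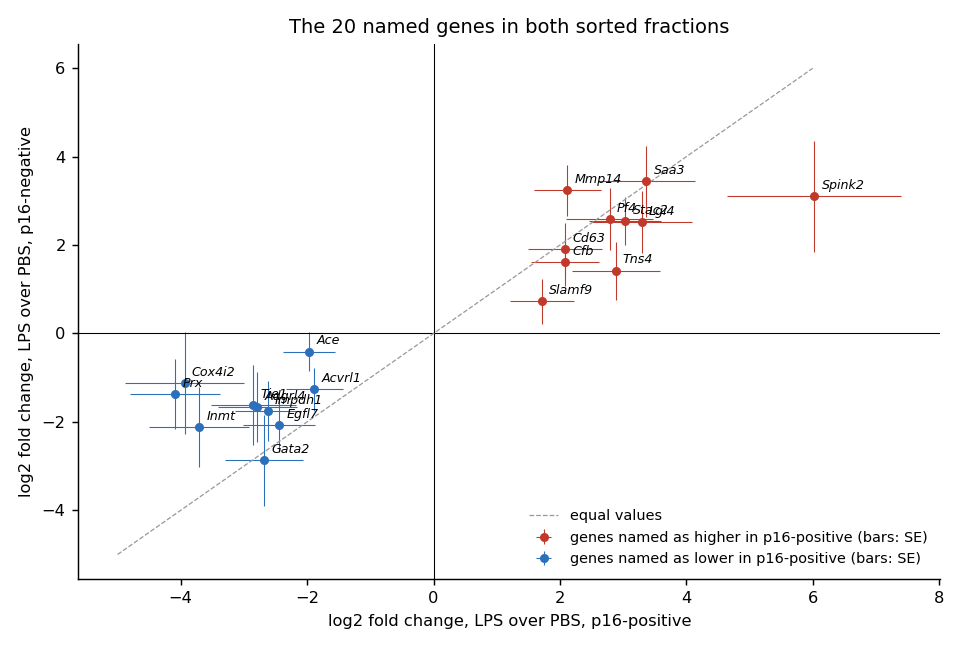
Log2 fold change (LPS over PBS) of the 20 named genes in p16-positive (horizontal axis) and p16-negative macrophages (vertical axis), with bars of 1 SE and a dashed line of equal values. All 20 lie in the same-sign quadrants, and Gata2 lies nearest the line of equal values among the lower genes.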

How the data were processed

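Bulk 3′ libraries (MARS-seq) were made by the authors from 5000 sorted cells per sample. Per the study's methods, reads were counted with the UTAP pipeline on mm10, taking uniquely mapped reads at RefSeq 3′ ends, and UMIs were counted; their versions are not known here. The deposited table holds raw counts (UMIs), which were used, and normalized counts, a signal scaled by the authors' DESeq2 size factors, and log2 (rlog) values, which were not. The file also holds the authors' fold changes and p-values for their comparisons, which were not used. Each of its 7946 genes has at least 6 UMIs in some library.

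All 16 libraries entered 1 model of 4 group means (edgeR 4.0.16, limma 3.58.1, R 4.3.3, TMM factors, glmQLFit and glmQLFTest, 12 residual degrees of freedom), with Benjamini-Hochberg adjustment over 5741 genes at 0.05. The SE is the log2 fold change divided by the square root of F. CPM are UMIs scaled to 1000000 per library. The figures' log2 CPM use a prior count of 2. Named genes were the 15 with the largest change each way among called genes of at least 20 CPM in the higher group, filled by lowest p to 10, preset genes, up to 4 genes of lowest p per list, and 3 genes of the fraction difference. The labels do not say that a replicate number marks shared animals, and numbers were not used to pair samples in the main fit. No 2 libraries of a group agreed within counting noise. The members and the 46 lists were chosen with earlier results of these data known. DESeq2 1.42.0, voom, other size factors and filters, the block, and leaving out libraries were alternatives. Of the table's genes, 7919 matched RefSeq symbols of GRCm38.p6.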

Additional observations from a re-analysis of the deposited data

Results flagged for a closer look

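Each group of 4 libraries was searched for a library whose gap to its nearest neighbour, as a share of the range of log2 CPM (prior count 2), was over Dixon's 95% critical value. This found 14 of 166 groups, where chance gives about 1 in 20. Single low libraries among the PBS p16-positive group were the most frequent, and 9 of the 14 were PBS replicate 1, the library with 13861 UMIs: C1qa at 144 CPM, against 435 to 496 CPM in the other PBS libraries, Btg2 at 144 CPM, against 222 to 265 CPM, Cd63 at 72.1 CPM, against 374 to 496 CPM, and Impdh1 at 72.1 CPM, against 171 to 224 CPM. In the same library C1qb, Itgax, Kif23, Siglecf and Trem2 were at 0 UMIs, where the other PBS libraries held 40.4 to 55.4 CPM of C1qb, 85.4 to 101 CPM of Itgax, 25.8 to 30.3 CPM of Kif23, 25.8 to 32.3 CPM of Siglecf and 69.2 to 77.5 CPM of Trem2. A count of 0 there allows up to 216 CPM.

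Sftpc was at 811 CPM in LPS replicate 4, against 5736 to 8009.6 CPM in the other LPS libraries. Psmb8, an immunoproteasome subunit, was at 470 CPM in LPS replicate 2, against 739 to 963 CPM. Palm was at 157 CPM in LPS replicate 1, against 91.0 to 92.7 CPM. Cldn5 was at 6318 CPM in PBS replicate 2, against 2517 to 3391 CPM, and S100a9 was at 62.0 CPM in PBS replicate 3, against 344 to 433 CPM. Without the library that stood apart, the sign of the log2 fold change was the same for all 14 genes, and the value moved by −0.355 to 0.565.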

How the results depend on the processing

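The count of 3 genes was 0 with the 8 p16-positive libraries alone, 4 with RLE or upper-quartile factors, 5 with filterByExpr, 14 with no low count filter, 20 with DESeq2, 49 with voom and sample quality weights, and 5 without both PBS replicate 1 libraries. Leaving out 1 of the 16 libraries gave 0 to 85. Leaving out both LPS p16-positive replicate 2 and PBS p16-positive replicate 1, chosen after seeing the data, gave 69. The replicate block gave 128 genes, 23 higher and 105 lower, and 71 of these were among the 85. It called 11 of the 16 endothelial members. Deviations from group means of same-numbered LPS and PBS p16-positive libraries correlated between −0.118 and 0.336, and in 3 of 4 pairs an LPS library correlated best with the PBS library of its number. Between p16-positive and p16-negative libraries of the same number the correlation was 0.0105 to 0.635 for LPS and 0.15 to 0.347 for PBS, where all 4 were best matched. This is a hint from the data and not the design. The count for the difference between fractions was 0 in every alternative run, the replicate block included. It could not be had from 8 libraries.

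Signs that turned were these. The log2 fold change of Bcl2l1, 0.10, was −0.0048 with filterByExpr, −0.039 without PBS p16-positive replicate 1, −0.17 without LPS p16-positive replicate 2, −0.038 without both PBS replicate 1 libraries, −0.019 without PBS p16-positive replicate 4 and −0.33 without the pair of libraries named above, and at most 0.36 over single leave-outs. Cd36, −2.35, was 0.22 with voom, 0.52 without PBS p16-positive replicate 1, 0.53 without both PBS replicate 1 libraries and 0.43 without the pair, with −3.34 the lowest over single leave-outs. Leaving out single libraries gave −0.11 to 0.45 for Cdkn1a (0.21 with all) and −0.40 to 1.48 for Cdkn2a (0.50 with all), lowest for both without LPS p16-positive replicate 4, and Cdkn2a was −0.17 with voom. Foxj1, 1.65, was −0.16 without the pair and −0.078 to 2.53 over single leave-outs. Scgb1a1, −1.95, was −4.66 to 0.027 over single leave-outs, 0.027 being without PBS p16-positive replicate 1 and also without both PBS replicate 1 libraries. Tmem165, −0.21, was 0.20 with voom, 0.17 without the pair and −0.565 to 0.044 over single leave-outs, 0.012 being without PBS p16-positive replicate 2. The causes were not tested. Depth limits genes of few UMIs most, and intervals cover counting error only.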
